A study of Mus musculus with 12 samples.

Results

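The 10 genes described here form the core of the circadian clock and its closest outputs, and they were chosen by name: Bmal1 (Arntl in the annotation), Clock, Per1, Per2, Per3, Nr1d1, Nr1d2, Dbp, Tef and Ciart. They are 10 of the 19938 genes that the array measures with a probe set of exactly 1 gene symbol, and 9 of the 11922 that were tested. The array was the Affymetrix Mouse Gene 1.0 ST. The tissue was scraped mucosa and submucosa of the small intestine of male C57BL/6J mice, divided into a proximal, a middle and a distal segment. Young mice (4 months) and old mice (21 months) were fed a purified palm-oil-based diet with 10% (low-fat) or 45% (high-fat) of energy from fat for 2 weeks, after a low-fat run-in that all groups shared. RNA of 6 young or 8 old mice of a diet group was pooled, which gave 4 pools, and each pool was measured on 3 arrays, 1 per segment of the same animals. Each combination of segment, age and diet thus has 1 of the 12 arrays. Mice were kept in equal periods of light and dark and were killed in the fed state. The clock time of killing is not given in the sources used here, and since each pool is 1 age and diet group, collection time and group cannot be told apart.

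The clock of mammalian cells is a loop of transcription and repression. BMAL1 and CLOCK bind E-box sequences as a pair and switch on the Period and Cryptochrome genes, whose proteins return to the nucleus and stop that pair, while the REV-ERB proteins encoded by Nr1d1 and Nr1d2 repress Bmal1 and so form a further loop. DBP and TEF, which bind D-box sequences, carry the rhythm to output genes, and CIART is a repressor of BMAL1 and CLOCK activity. In the intestine these genes cycle over the day, Bmal1 roughly opposite in phase to Nr1d1, Dbp and the Period genes, and feeding time helps to set them.

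The promoter sequences below are shown because they hold, or lack, the letters through which members of the loop are known to act on each other. They are the 250 bases before the start of the gene, 5′ to 3′ on the gene's strand, from RefSeq on the GRCm38.p6 build. Capitals mark an E-box (CACGTG) or a D-box (TTATGTAA or TTACGTAA), searched on both strands over 250 bases before and 50 after the start. Windows were found for 9 of the 10 genes, Per2 being the exception. Some genes have several starts and so several windows, 14 in all, and for Per1 and Tef, with 2 each, the first is shown.
Per1, chr11:69098699-69098948, plus strand: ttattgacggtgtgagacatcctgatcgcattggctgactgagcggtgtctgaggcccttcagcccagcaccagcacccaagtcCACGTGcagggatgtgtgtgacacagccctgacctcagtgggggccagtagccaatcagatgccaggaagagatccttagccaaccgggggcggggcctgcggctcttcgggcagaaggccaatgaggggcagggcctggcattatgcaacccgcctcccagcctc
Tef, chr15:81802423-81802672, plus strand: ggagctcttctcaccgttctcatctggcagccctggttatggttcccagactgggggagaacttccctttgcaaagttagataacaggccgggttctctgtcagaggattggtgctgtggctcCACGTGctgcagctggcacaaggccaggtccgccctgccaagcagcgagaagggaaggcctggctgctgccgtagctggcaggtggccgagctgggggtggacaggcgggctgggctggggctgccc
Per3, chr4:151044666-151044915, minus strand: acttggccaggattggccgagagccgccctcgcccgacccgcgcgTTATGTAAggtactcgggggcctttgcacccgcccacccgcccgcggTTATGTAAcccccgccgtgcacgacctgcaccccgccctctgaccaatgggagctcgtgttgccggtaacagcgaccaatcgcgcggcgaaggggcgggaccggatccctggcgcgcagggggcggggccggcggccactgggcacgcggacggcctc
Dbp, chr7:45704997-45705246, plus strand: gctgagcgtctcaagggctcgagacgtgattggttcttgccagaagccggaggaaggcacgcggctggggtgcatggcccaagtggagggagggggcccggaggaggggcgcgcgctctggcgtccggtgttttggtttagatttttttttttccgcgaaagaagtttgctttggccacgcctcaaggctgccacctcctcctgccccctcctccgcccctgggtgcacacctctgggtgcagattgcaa
The E-box was found in 7.15% of 32851 promoter windows. Here it was in 3 of the 9 genes with a window: Per1 (1 of its 2 windows), Tef (each of its 2 windows) and Ciart. Ciart held 3 copies, which begin 116, 58 and 44 bases before the start. The share is of windows and the members are counted as genes, so they are unlike measures. The D-box was found in 1.06% of windows. Per3 held 2 copies, which begin 205 and 158 bases before the start. The E-box variant CACGTT stood in 4.68% of windows and in Nr1d1, on the opposite strand. A ROR response element, the sequence that REV-ERB proteins and their ROR counterparts bind, was in 0.384% of windows and in the second window of Bmal1 (AAAGTAGGTCA, on the gene's strand, 26 bases after that start). Of the motifs searched, none was in the windows of Dbp, Nr1d2 and Clock. A match of letters is a description and not a measured binding site.

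All values below are log2 values made by the Robust Multi-array Average method (RMA), which corrects background, normalizes the arrays and summarises the probes, and differences are on the same log2 scale, so that 1 is 2-fold. The medians of the 12 arrays lay between 5.57 and 5.70. A gene was tested where its intensity was over 50 (5.64 on the log2 scale) on at least 1 array. Ciart, with values of 4.24 to 4.78, lay below that limit on every array and was not tested, and its other probe set ran from 3.73 to 5.04. Per3, at 5.55 to 6.35, lay close to the limit and fell under it on some arrays. The other 8 genes were above it on all arrays. The labelled tissue was checked on its markers: all 12 markers of small intestinal epithelium were over the limit, with a summed intensity of 55800 to 66800. Since the tissue is a mixture, fewer cells of a type and less RNA per cell cannot be told apart.

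**Figure D1:**
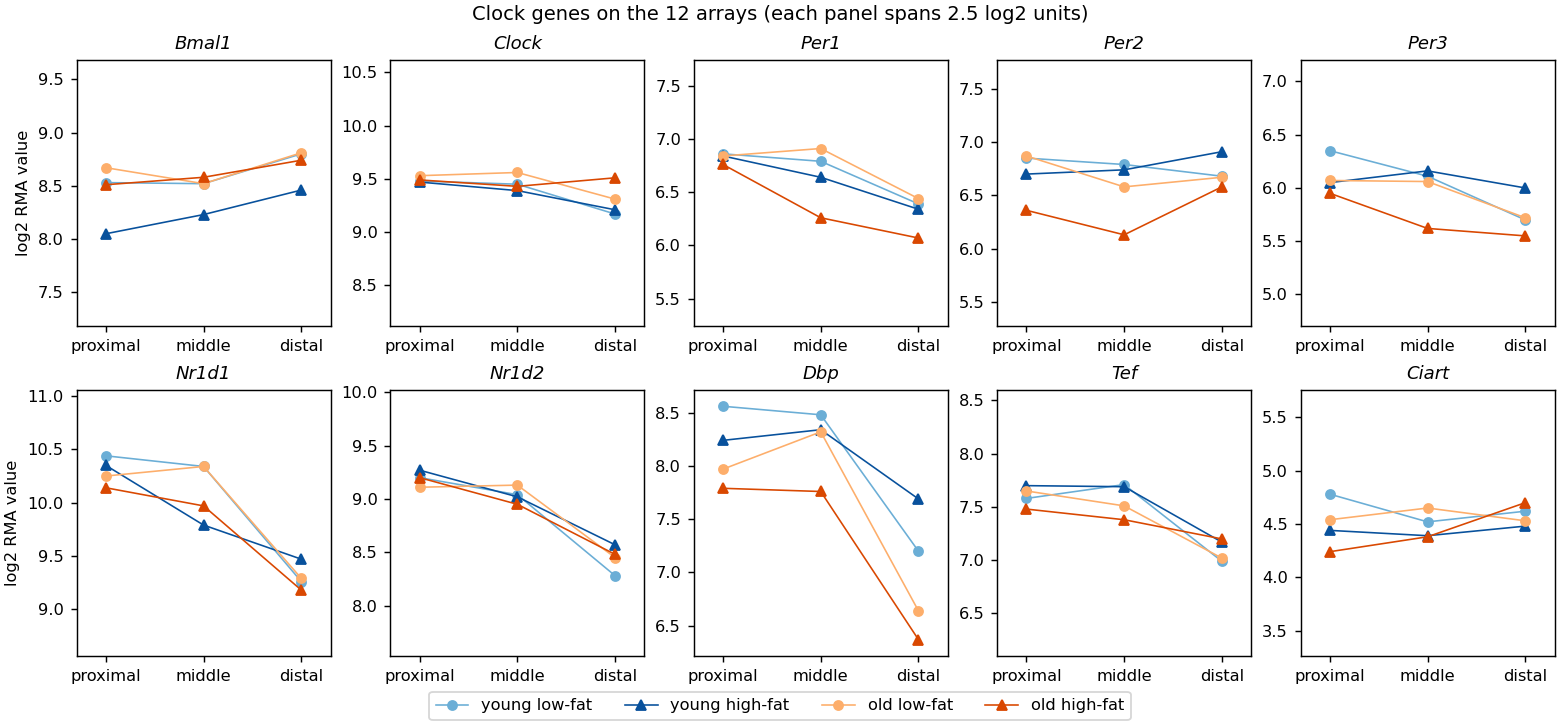
Log2 RMA value of each clock gene (vertical axis) in the proximal, middle and distal segment (horizontal axis), 1 point per array and 1 line per pool of mice. All panels span 2.5 log2 units; Dbp, Nr1d1, Nr1d2, Tef and Per1 drop towards the distal segment, and Bmal1 is lowest in the young high-fat pool throughout.

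Along the intestine, from the middle to the distal segment, 5 of the 9 tested genes fell (Dbp, Nr1d1, Nr1d2, Tef and Per1) and Bmal1 rose, while between the proximal and middle segments none passed the test. Dbp, the D-box factor whose transcript is among the strongest cyclers in many tissues, changed most, by 2.38-fold. The segments were compared with limma over the 4 pools, with p-values adjusted over all 11922 genes.

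Among the output factors, Dbp had proximal values of 8.56, 8.24, 7.97 and 7.79, middle values of 8.48, 8.34, 8.32 and 7.76 and distal values of 7.20, 7.69, 6.64 and 6.37 (young low-fat, young high-fat, old low-fat and old high-fat pools, in that order). Every distal value was below all 8 proximal and middle values. The fall from middle to distal was 1.25 ± 0.14 (SE, n = 4 pools; limma, adjusted p = 0.00013), and it was seen in 4 of 4 pools with a range of −1.68 to −0.66. Tef, its close relative, averaged 7.60 ± 0.10 (SD, n = 4), 7.57 ± 0.16 and 7.10 ± 0.11 from proximal to distal, and it fell from middle to distal by 0.48 ± 0.08 (SE; limma, adjusted p = 0.00121). Its distal arrays did not overlap with those of the other segments. The share of all genes whose distal arrays had no such overlap was not counted, here or for the genes below.

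Both REV-ERB genes fell towards the distal segment. Nr1d1 had proximal values of 10.44, 10.35, 10.25 and 10.14, middle values of 10.34, 9.79, 10.34 and 9.97 and distal values of 9.26, 9.47, 9.29 and 9.18, in the same order of pools. The distal arrays lay below all others. From middle to distal Nr1d1 fell by 0.81 ± 0.11 (SE; limma, adjusted p = 0.000373) and Nr1d2 by 0.59 ± 0.07 (adjusted p = 0.000123). Nr1d2 was at 9.11 to 9.27, 8.95 to 9.13 and 8.28 to 8.57 from proximal to distal. Its proximal and middle ranges overlapped, and the difference of −0.16 ± 0.07 between them had an adjusted p of 0.115.

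Of the Period genes, which encode the repressors of the main loop, Per1 averaged 6.83 ± 0.05 (SD, n = 4), 6.65 ± 0.28 and 6.31 ± 0.17 from proximal to distal. It fell from middle to distal by 0.34 ± 0.08 (SE; limma, adjusted p = 0.00863). Per3 averaged 6.10 ± 0.17, 5.99 ± 0.25 and 5.74 ± 0.19, and passed only between the proximal and the distal segment (−0.36 ± 0.09, limma, adjusted p = 0.00646; 0.0507 without the young low-fat pool). Per2 was level, at 6.70 ± 0.23, 6.56 ± 0.30 and 6.71 ± 0.14, and its difference between the distal and the proximal segment was 0.01 with a 95% interval of −0.19 to 0.22.

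The activators took separate directions. Bmal1 had proximal values of 8.53, 8.05, 8.67 and 8.51, middle values of 8.52, 8.23, 8.52 and 8.58 and distal values of 8.80, 8.46, 8.81 and 8.74. Within each pool the distal array was the highest, although the ranges of the segments overlapped because of the low young high-fat pool. Bmal1 rose from middle to distal by 0.24 ± 0.06 (SE; limma, adjusted p = 0.0124), and no longer passed without the young low-fat pool (adjusted p = 0.0676) or without the old low-fat pool (adjusted p = 0.0567). Clock, its partner, moved little: it averaged 9.49 ± 0.03, 9.46 ± 0.08 and 9.30 ± 0.15, and its fall of 0.19 ± 0.07 from proximal to distal (adjusted p = 0.0307) was lost when the young low-fat, young high-fat or old low-fat pool was left out (adjusted p of 0.114 to 0.154) and after quantile normalization (0.274).

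Read against all genes, the segments differ broadly on these arrays. From proximal to middle 25.0% of the tested genes passed and none of the 9 clock genes did, with 1 of 9 at an unadjusted p under 0.05 (limma). From middle to distal 20.0% of genes fell and 14.6% rose, against 5 and 1 of the 9. From proximal to distal 27.5% fell and 27.3% rose, against 7 (Dbp, Nr1d1, Nr1d2, Tef, Per1, Per3 and Clock) and 1 (Bmal1) of the 9, with a median of −0.51 for the clock genes and 0.02 for all genes. The distal mean was the lowest of the 3 for Dbp, Nr1d1, Nr1d2, Tef, Per1, Per3 and Clock. It was the highest for Bmal1 and barely so for Per2 (6.71 against 6.70 in the proximal segment). The order of the proximal and middle levels was not resolved by the test: the 95% interval of middle minus proximal was −0.31 to −0.01 for Nr1d2, −0.35 to 0.00 for Per1 and −0.24 to 0.41 for Dbp.

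**Figure D2:**
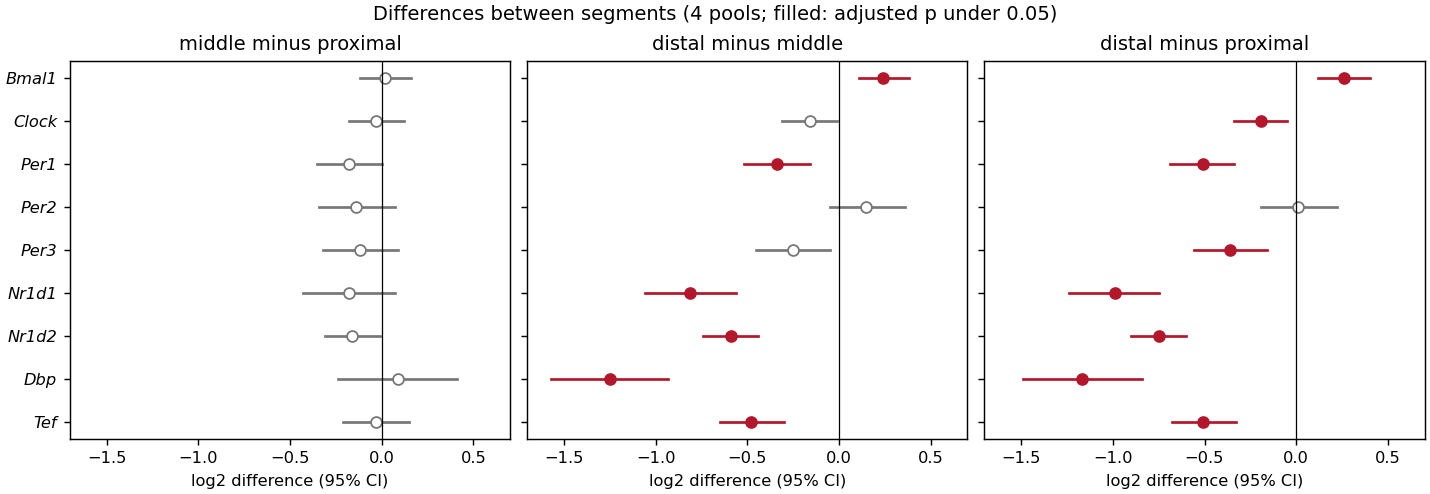
Log2 differences between segments for the 9 tested clock genes, with 95% intervals from limma over 4 pools; filled red points passed the adjusted threshold. No gene is filled between proximal and middle, 6 are between middle and distal, and 8 are between proximal and distal.

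Smooth muscle markers moved with the segments. All 10 of them rose from middle to distal, with a median of 0.93, and their summed intensity on the proximal arrays was 843 to 1540, on the middle arrays 1320 to 2190 and on the distal arrays 1750 to 5460. With each array's smooth muscle level as a covariate, an alternative added after the data were seen, 1 of the 9 clock genes passed from middle to distal (Dbp, −1.58 ± 0.40, adjusted p = 0.0233) and none from proximal to distal, where the SE of Dbp rose from 0.14 to 0.59 as the covariate itself differs between segments. In that fit Clock and Tef turned to differences above 0 from proximal to distal, of 0.40 and 0.21, neither of which passed. The 12 epithelial markers had summed intensities of 55800 to 57200, 59000 to 61400 and 60600 to 66800 from proximal to distal. All 9 tested macrophage, B and T cell markers passed between the proximal and the distal segment, 3 upwards and 6 downwards, with summed intensities of 2370 to 2600, 2820 to 3000 and 2070 to 3200. The 27 pancreas acinar genes on the array, which were left out of the tests, summed to 45500 to 110000 on the proximal arrays, against 2120 to 2850 on the middle and 1920 to 2660 on the distal arrays. The part of the immune and pancreas cells in the segment differences of the clock genes was not tested.

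Of 11 other listed genes of the transcriptional loops 6 were tested, and between the proximal and the distal segment, where 27.3% of all genes rose and 27.5% fell, 4 of the 6 rose and 2 fell. Cry1 and Cry2, the Cryptochrome partners of the Period proteins, rose by 0.35 and 0.22. Nfil3, which competes with DBP and TEF at D-boxes, rose by 0.49 (SE 0.14, adjusted p = 0.0111), and Rora, an activator of Bmal1 that lay near the limit at 5.22 to 5.77, rose by 0.22. Hlf, the remaining relative of Dbp and Tef, fell by 1.00 (SE 0.15, adjusted p = 0.000294), and the E-box repressor Bhlhe40 fell by 0.58 (SE 0.06, adjusted p = 3.51e-05). Dbp, Tef and Hlf, the D-box activators of this family, thus all fell, while Nfil3 rose. From middle to distal, where 14.6% of all genes rose and 20.0% fell, 2 of the 6 rose and 3 fell. Cry2 was highest in the middle segment, and fell from there to the distal segment in 4 of 4 pools (range −0.24 to −0.15).

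Of 11 tested genes that act on clock proteins or bind them, 5 rose and 2 fell from proximal to distal, where 27.3% of all genes rose and 27.5% fell. Nono, a partner of the Period proteins, rose by 0.36 and Timeless by 0.29, whereas Usp2, a deubiquitinase, fell by 0.21. Of 12 tested output genes, 2 rose and 6 fell, against the same shares. Nampt, which makes the NAD precursor, fell by 0.89, the glucose transporter gene Slc5a1 by 0.86, Tsc22d3 by 0.67 and the cell cycle kinase gene Wee1 by 0.54.

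Across the 4 pools, Bmal1 was the only clock gene that passed. It averaged 8.25 ± 0.21 (SD, n = 3 segments) in the young high-fat pool against 8.62 ± 0.16 in the young low-fat, 8.67 ± 0.15 in the old low-fat and 8.61 ± 0.12 in the old high-fat pool. In every segment the young high-fat array was the lowest of the 4, by at least 0.28. The difference among pools, with the segment in the model, had an adjusted p of 0.0365 (limma), at which 2.1% of all genes passed. It was lost without any 1 segment (adjusted p of 0.135 to 0.385), with no intensity filter (0.0665) and with quantile normalization of the tested genes (0.0535).

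Dbp had the widest range of pool means, 0.78, with 8.08 in the young low-fat, 8.09 in the young high-fat, 7.64 in the old low-fat and 7.31 in the old high-fat pool, and an adjusted p of 0.0675. The Period genes were lowest in the old high-fat pool. Per1 averaged 6.36 there against 6.61 to 6.73 in the other pools, Per2 6.36 against 6.70 to 6.78 and Per3 5.70 against 5.95 to 6.07. None of the 3 passed (adjusted p of 0.126 to 0.195). All 3 had an unadjusted p under 0.05 (limma), as did Bmal1 and Dbp, which made 5 of the 9 clock genes. Of all 11922 tested genes, 2002 were under that limit. Nr1d1, Nr1d2, Tef and Clock had ranges of pool means of 0.25 or less.

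**Figure D3:**
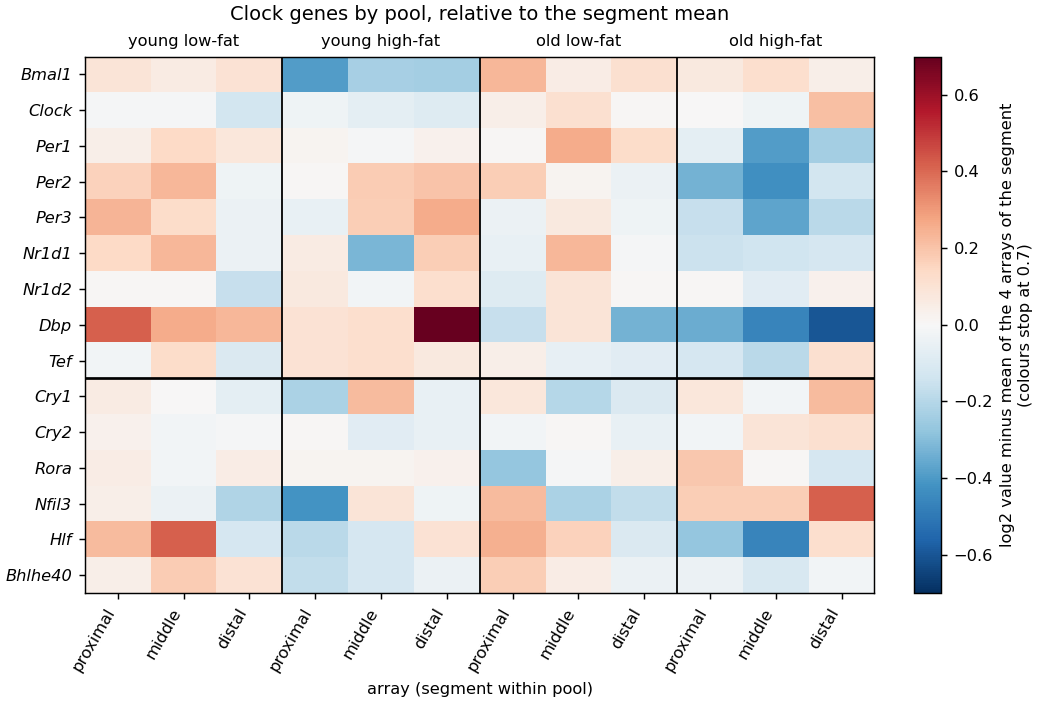
Log2 value of each array minus the mean of the 4 arrays of its segment, for the 9 tested clock genes (above the line) and 6 other genes of the loops (below it), in columns of segments within pools. Bmal1 is below its segment means only in the young high-fat pool, and Per1, Per2, Per3 and Dbp are below theirs in the old high-fat pool.

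Put as shares of the sum of squares over the 12 arrays, the segment took 94.7% of the spread of Nr1d2, 87.6% of Nr1d1, 83.0% of Tef and 70.0% of Dbp, against a median of 53.3% over all genes. The pool took 62.0% of the spread of Bmal1 and 66.0% of that of Per2, against a median of 15.5%. Bmal1 and Per2 were thus the members in which the pools differed more than the segments.

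**Figure D4:**
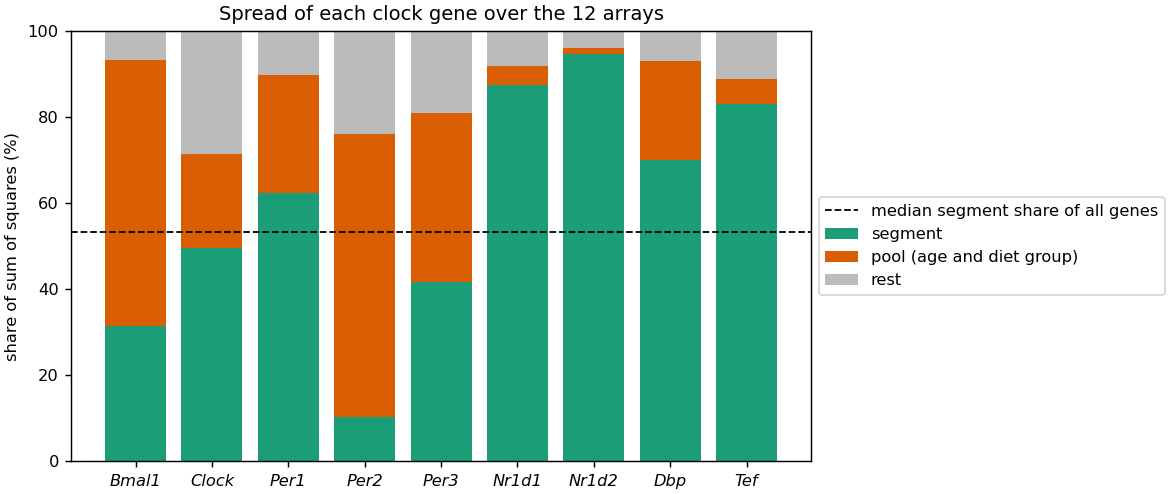
Share of each clock gene's sum of squares over 12 arrays (vertical axis, %) that lies between segments, between pools and in the rest; the dashed line is the median segment share of all tested genes, 53.3%. Nr1d2 is almost wholly a segment pattern, while Bmal1 and Per2 have pool shares of 62.0% and 66.0%.

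With age, Dbp fell, and it was the only clock gene that passed. By the values of Dbp given above, old was below young in 6 of 6 pairs of arrays, and the young and old arrays of a segment did not overlap in any of the 3 segments. In the middle segment the gap was narrow, 8.34 (young high-fat) against 8.32 (old low-fat). The shares of all genes with 6 of 6 pairs in the same direction, or without overlap, were not counted for this or the other comparisons. Over the means of the pools Dbp fell by 0.61 ± 0.08 (SE, n = 2 pools per age; limma, adjusted p = 0.0164), a 1.53-fold difference. Over all genes, 2.15% fell and 0.763% rose with age. Without the intensity filter, which raises the number of tests, Dbp had the same difference and an adjusted p of 0.0571.

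In the remaining members the age difference was smaller and did not pass. Per2 and Per3 differed by −0.25 (95% interval −0.45 to −0.05, adjusted p = 0.194) and −0.24 (−0.40 to −0.07, adjusted p = 0.152), and both were lower in old mice in 5 of 6 pairs. Clock was higher in old mice in 6 of 6 pairs, by 0.02 to 0.30, and its mean difference of 0.11 had an adjusted p of 0.284. Bmal1 was 0.21 higher in old mice (adjusted p = 0.237); the difference was 0.36 between the high-fat pools and 0.05 between the low-fat pools. Nr1d1, Nr1d2, Per1 and Tef differed by −0.10 to −0.01.

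Within single segments none of the 9 genes passed for age, against 0.73% of genes that passed in at least 1 of the 3 segments. Dbp came closest, in the distal segment (−0.94 ± 0.17, limma, adjusted p = 0.0807); its proximal difference was −0.52 and its middle difference −0.37. The distal high-fat pair was 2.49-fold lower in old mice (−1.32), and the low-fat pair differed by −0.56. That pair was the only 1 of the 6 age pairs in which a tested clock gene differed by over 2-fold, as 1.06% of genes did in at least 1 of the 6. Whether the age or diet difference itself varied between segments was tested in 6 contrasts, in which 0.126% of genes passed in at least 1 and no clock gene did. Over the means of the pools Dbp still fell with age when a segment was left out, by 0.45 without the distal segment (limma, adjusted p = 0.0438), 0.66 without the proximal and 0.73 without the middle segment.

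Markers of cells below the epithelium moved with age as well. Of the 10 smooth muscle genes 8 fell, with a median of −0.73, and of 9 listed fibroblast and matrix genes all 8 tested fell, with a median of −0.47. The summed smooth muscle intensity was 843 to 2940 in old and 1150 to 5460 in young arrays, while none of the 12 epithelial markers passed. The part of these cells in the fall of Dbp was not tested, nor was that of the collection time of the pools.

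**Figure D5:**
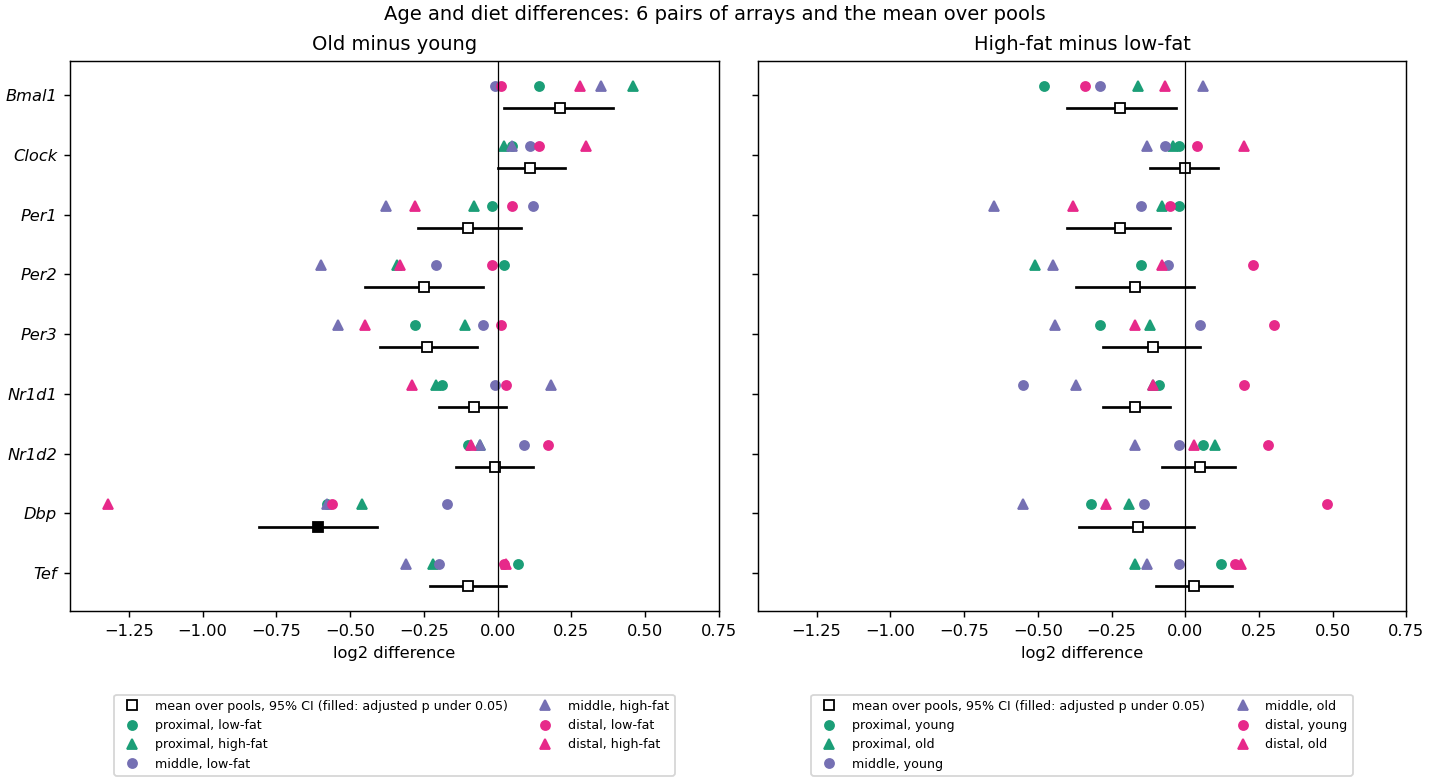
Old minus young (left) and high-fat minus low-fat (right) log2 differences of the 9 tested clock genes, for each of the 6 pairs of arrays (coloured by segment) and for the mean over pools with its 95% interval (squares; filled where the adjusted threshold was passed). Dbp is the only filled square, at −0.61 for age, and all 6 of its age pairs lie below 0.

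The high-fat diet was not followed by a change in any clock gene that passed over the pools, where 5.69% of all genes passed (limma). An unadjusted p under 0.05 was found in 2776 of the 11922 tested genes and in 3 of the 9 clock genes. Those 3 were Bmal1 (−0.22 ± 0.08, adjusted p = 0.161), Per1 (−0.22 ± 0.07, adjusted p = 0.138) and Nr1d1 (−0.17 ± 0.05, adjusted p = 0.0982). Per1 was lower on the high-fat diet in 6 of 6 pairs of arrays, by 0.02 to 0.65, with the widest gap in the middle segment of old mice (6.26 against 6.91). Bmal1 and Nr1d1 were lower in 5 of 6 pairs. Dbp was lower in 5 of 6 pairs and 0.48 higher in the distal segment of young mice. In the distal segment its age difference was −1.32 in the high-fat pair and −0.56 in the low-fat pair. Of the 10 smooth muscle markers 4 fell on the high-fat diet, with a median of −0.21, and of the 6 proximal and 6 distal identity genes 2 and 3 passed. Their part in the diet differences was not tested.

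Within segments, Nr1d1 in the middle segment had the lowest adjusted p for diet (−0.46 ± 0.10, 0.0575). Its middle values were 10.34 and 10.34 on the low-fat diet against 9.79 and 9.97 on the high-fat diet, so that the diets did not overlap there, whereas in the distal segment the difference was 0.04. No clock gene passed in a segment, against 2.9% of genes that passed for diet in at least 1 of the 3. No tested clock gene differed by over 2-fold in any of the 6 diet pairs of arrays, as 1.46% of genes did in at least 1.

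Split by pool, the diet difference of Bmal1 was −0.37 (95% interval −0.53 to −0.21, adjusted p = 0.097) in young mice and −0.06 (−0.22 to 0.10) in old mice. For Per1, Per2 and Per3 it was −0.37, −0.34 and −0.24 in old mice (adjusted p of 0.0939, 0.166 and 0.336) and −0.08, 0.01 and 0.02 in young mice, and the test of the difference between the ages had an adjusted p of 0.999 for each. No clock gene passed in any of the 4 pairs of pools, where 1.17% of all genes did in at least 1. The test of whether the age difference depends on the diet called 0.0% of genes with limma, with 318 genes and 3 of the 9 clock genes (Bmal1, Per1 and Per2) at an unadjusted p under 0.05.

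With age 2.15% of all genes fell and 0.763% rose, with diet 5.69% passed and among the pools 2.1%. Beside those shares, none of the 6 tested other genes of the loops passed with age and 1 passed with diet. Hlf was lower on the high-fat diet by 0.27 ± 0.05 (SE, limma, adjusted p = 0.0261). That mean joins opposite signs: Hlf was lower in 4 of 6 pairs of arrays and higher in both distal pairs, with proximal, middle and distal differences of −0.47, −0.58 and 0.22, of which the middle one passed (adjusted p = 0.00954). Tested against each other, the distal diet difference did not pass against the middle one (limma, adjusted p = 0.0651) or the proximal one (0.103). The widest ranges of pool means in this list were those of Hlf (0.38), Nfil3 (0.37), Bhlhe40 (0.22) and Cry1 (0.17), none of which passed among the pools. Of the genes that act on clock proteins, Fbxl21, a ubiquitin ligase subunit for the Cryptochromes, rose with age by 0.35 (adjusted p = 0.0195) and was higher in old mice in 6 of 6 pairs. Among the pools Usp2 had a range of 0.32 (adjusted p = 0.126). Of the output genes, Slc15a1, the gene of the peptide transporter PEPT1, and Tsc22d3 differed among the pools (adjusted p of 0.0395 and 0.0474). Slc15a1, Slc5a1 and Tsc22d3 were lower on the high-fat diet, by 0.29, 0.28 and 0.36 (adjusted p of 0.0408, 0.0259 and 0.0166). Wee1 was lower in old mice and on the high-fat diet in 6 of 6 pairs each, with an adjusted p of 0.0612 among the pools.

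Which genes followed Dbp across the pools was described by the correlation with Dbp over the 12 arrays after the mean of each segment was removed. The points share mice, since each pool gives 3 of them, and so this ranking is a description. The 10 most like Dbp, at r of 0.88 to 0.95, were Abcg1, Socs3, Slc39a1, Hspa8, Slc3a1, Bco2, Pcbd2, Tmx4, Il16 and Rnf145. The 10 least like it, at −0.91 to −0.89, were Ireb2, Ap1s3, Pbld2, Chd9, Cdk8, Scaf8, Prkci, Tbc1d12, Pgm1 and Zfp655. Per3 ranked 19 of 11921 (r = 0.86), Usp2 84 (0.79), Wee1 117 (0.78), Per2 253 (0.73), Nr1d1 987 (0.58) and Per1 1058 (0.57). Tef (0.33) and Nr1d2 (0.28) were in between. Bmal1 (−0.42) and Clock (−0.59) stood on the opposite side, at ranks 9774 and 11011. Over all genes the 5th and 95th percentiles of r were −0.64 and 0.64, so that of the members only Per3 and Per2 lay outside them. Without removal of the segment means, Nr1d1 (0.87), Per3 (0.86), Tef (0.83), Nr1d2 (0.82) and Per1 (0.80) were all close to Dbp, Bmal1 was at −0.66, and Clock changed sign to 0.35.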

How the data were processed

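The authors deposited log2 values made with RMA (version not stated) for 35556 probe sets on 12 arrays, with a range of 1.8 to 14.49. Of these, 21789 list 1 gene symbol, 1621 several and 12146 none. Only probe sets with 1 symbol were used, and each gene was taken from its probe set of highest mean over the 12 arrays. An intensity above 50 on 1 array or more was required, which 11948 genes met, and 11922 were left once 26 genes specific to the pancreas had been dropped. The members and gene lists were chosen with earlier results of these data known.

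limma 3.58.1 in R 4.3.3 was fitted with segment and pool as terms (6 residual degrees of freedom, 4.15 prior), to the means of the 4 pools with age and diet as terms (1 residual, 5.67 prior) and to the 12 arrays with age and diet within segments (3 residual, 4.36 prior). Arrays of a pool share mice. The pool term pairs the segments of a pool in the first fit, whereas differences among pools there, and the last fit, treat the arrays of a pool as separate. For segment differences the p-values measure the spread of those differences between few pools. Each age and diet group has 1 pool, so no p-value for age, diet or pools measures the spread between pools of mice of the same group. In the fit to the pool means, the 1 residual degree of freedom is the departure of the age difference between the diets. Adjusted p-values (Benjamini-Hochberg) under 0.05 passed. The number of arrays limits the precision. The fits were also run on simulated arrays. Their noise was drawn separately for each array, with no spread between pools, so they cannot show how the tests behave for arrays that share mice. Python 3.11.15 with pandas and numpy did the rest.

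All members were named, as were genes of 3 further clock lists that passed among or over the pools or had the 4 widest ranges of pool means, the 10 genes most and least like Dbp, and 2 to 4 of other lists. Others named in counts were picked with their values in view. Recomputation was done for other intensity filters, with pancreas genes retained, with the mean of probe sets, median centring, quantile normalization, trend and robust variance or a random block for the pool, and with each pool, segment or array left out. A smooth muscle covariate was added after seeing the data. Some listed genes are not reported here.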

Additional observations from a re-analysis of the deposited data

How the results depend on the processing

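Under the alternatives listed above other than the smooth muscle covariate, the 16 differences of clock genes that passed were recomputed 174 times, of which 160 passed in the same direction, 14 no longer passed and 0 reversed. Among the pools, 0 clock genes passed without the intensity filter, 0 after quantile normalization and 2 (Bmal1 and Dbp) with an intensity over 50 on every array, and 0 without any 1 segment. With age 0 passed without the filter and 3 (Dbp, Bmal1 and Per3) with the pool as a random block, whose estimated correlation was −0.22. With diet 1 passed with an intensity over 50 on every array and 1 with an intensity trend and robust variance (Nr1d1 both times), and 2 (Bmal1 and Per1) with the random block. In the pairs of pools, and with age within segments, 1 passed with trend and robust variance. With diet within segments 1 (Nr1d1, middle) passed with an intensity over 50 on every array, centred arrays, trend and robust variance, or the segment's arrays alone. Leaving out 1 array leaves 1 pair of arrays for age and 1 for diet in that segment, so only an effect size is given. Without the old or the young distal low-fat array, the distal age difference of Dbp was that of the high-fat pair alone, −1.32. Leaving out 1 pool gave 5 to 8 genes from middle to distal and 6 to 8 from proximal to distal.

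With the smooth muscle covariate, 1 clock gene passed from middle to distal and 0 from proximal to distal, where Clock (0.40) and Tef (0.21) reversed. Without removal of segment means, the likeness of Clock to Dbp reversed (0.35). The cause was not tested in any of these.

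Counts over all genes moved more. Among the pools 250 passed and 0 to 467 under the alternatives, with age 347 and 84 to 1221, with diet 678 and 131 to 2382, from proximal to middle 2978 and 1562 to 3129, from middle to distal 4130 and 2519 to 4280, and from proximal to distal 6533 and 2522 to 6702. Within the proximal, middle and distal segment, age had 13, 3 and 78 (0 to 77, 0 to 30 and 1 to 451) and diet 38, 304 and 63 (13 to 230, 26 to 859 and 9 to 435), and the old pools differed by diet in 132 (0 to 274). Segment differences are paired by pool in the fit itself. The ages and the diets were compared between different mice, so no pairing by animal was possible there. In those fits age was compared with diet as a term, and diet with age as a term.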

Other observations

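Among the 4 pools 2 of 8 tested genes that follow body temperature, 3 of 11 induced by glucocorticoid and 0 of 12 immediate-early genes passed (limma; 3 of the 12 had an unadjusted p under 0.05), against 2.1% of all genes. Their part in the values of the clock genes was not tested. Of the 8 heat and cold response genes, 4 fell with age and 1 rose, where 2.15% and 0.763% of all genes did. The heat shock genes Hsph1 and Hspa1a fell by 0.69 and 0.66 (limma over the pool means, adjusted p of 0.0029 and 0.0119). Hspb1 and Hsp90aa1 fell by 0.42 and 0.36. Cirbp, a cold-induced RNA-binding protein gene, rose by 0.30 (limma, adjusted p = 0.0281). None of the 8 passed with diet, where 1 had an unadjusted p under 0.05. Hspa8, another heat shock gene, was among the 10 genes most like Dbp.

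Of 11 tested genes induced by glucocorticoid, 3 fell on the high-fat diet and none rose, where 5.69% of all genes passed in either direction and 4 of 10 smooth muscle markers fell. Fkbp5 fell by 0.60 (adjusted p = 0.0132), Tsc22d3 by 0.36 and Sgk1 by 0.32 (adjusted p = 0.0166 each), and the median of the list was −0.18 against −0.01 for all genes. Per1 is in that list too, with −0.22, and did not pass. None of the 11 passed with age, where 3 had an unadjusted p under 0.05. Of 12 tested immediate-early genes, Fos (−0.32, adjusted p = 0.0389) and Fosb (−0.36, adjusted p = 0.013) fell on the high-fat diet and Ier3 rose (0.22, adjusted p = 0.0475).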
